A study of Rattus norvegicus with 10 samples.

Results

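The members of the Slc25 family of mitochondrial carriers were followed in the left ventricle of Sabra rats with different heat histories. A gene was a member when its current symbol begins with Slc25a, with Slc25a20 left out, and when a probe set carried its symbol alone. Genes of the same fold under other symbols, such as Ucp1, Ucp2 and Ucp3, were left out by this naming rule alone. The brightest probe set stood for a gene with several. In this way 36 of the 14324 genes measured were members, represented by 41 probe sets, and 4 members (Slc25a1, Slc25a23, Slc25a24 and Slc25a51) had more than 1. Because no filter on low signal was applied, all 36 were tested. A further 12 carriers, among them the aspartate/glutamate carriers Slc25a12 and Slc25a13 and the pyrimidine nucleotide carriers Slc25a33 and Slc25a36, had no probe set named for them and were not analysed here.

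Expression arrays had been hybridised with RNA from 10 pools of 5 animals each, 2 separate pools in each of 5 groups. The control group was untreated and 1 month old. The heated groups entered a chamber at 34 °C at 3 weeks of age. AC2d rats stayed there for 2 days and were 1 month old at sampling, and AC30 rats stayed for 30 days and were 2 months old. Deacclimated rats (DeAC) spent 30 days in the heat, followed by 30 days at 24 °C. Reacclimated rats (ReAC) went through the same and were then returned to 34 °C for 2 further days. Both of these groups were 3 months old. Labelled ages matched between AC2d and control and between ReAC and DeAC, and in every other comparison age and heat history cannot be told apart.

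Values are log2 signals after quantile normalization, and a change is a difference of log2 group means with its standard error (SE), n = 2 pools a group. The error comes from 1 spread per gene over all 10 arrays, fitted with limma, so it is not the spread between the 2 pools of a single group. A gene passed at a Benjamini-Hochberg adjusted p under 0.05 over all 14324 genes. The summed signal of 8 heart muscle markers lay between 64520 and 68410 in every pool. That sum does not tell ventricular from atrial muscle, and the sum of 7 atrial markers ran from 1375 to 37700 across pools. The control pools stood apart from each other: 57 genes differed by more than 1 log2 unit between them, and no other group had more than 1 such gene. The largest gap of a carrier between control pools was 0.51 log2 units, for Slc25a35. In RNA from whole tissue, fewer cells of a type and less RNA per cell cannot be told apart.

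Slc25 proteins sit in the inner mitochondrial membrane, which is otherwise nearly closed to charged metabolites, and most of them swap one solute for another. They bring ADP and phosphate to the ATP synthase, release ATP, and pass the reducing power of cytosolic NADH inward through the malate-aspartate shuttle. They also move citrate, amino acids, glutathione, iron and cofactors. Heart muscle lives on oxidative metabolism and depends on these exchanges. A few members work elsewhere, such as Slc25a17 in peroxisomes and Slc25a46 in the outer mitochondrial membrane.

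Promoter sequences of 4 carriers on which the results turn are shown first. Slc25a11, Slc25a34 and Slc25a39 rose most clearly in DeAC among the carriers with a promoter entry, and Slc25a23 was the one that rose in AC30. Each run is the 250 bases before the gene's start in RefSeq (build GRCr8), written 5′ to 3′ on the gene's strand. Capitals mark every match, on either strand, to the GC box GGGCGG, the CCAAT box CCAAT or the core site AAGGTCA of oestrogen-related receptors. A match on the opposite strand shows as the reverse complement of these letters.
Slc25a11: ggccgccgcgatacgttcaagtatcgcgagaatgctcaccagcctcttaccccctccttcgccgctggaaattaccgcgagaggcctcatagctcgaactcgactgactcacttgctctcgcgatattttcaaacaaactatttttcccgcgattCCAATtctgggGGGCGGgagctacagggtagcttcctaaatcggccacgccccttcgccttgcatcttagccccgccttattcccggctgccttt
Slc25a34: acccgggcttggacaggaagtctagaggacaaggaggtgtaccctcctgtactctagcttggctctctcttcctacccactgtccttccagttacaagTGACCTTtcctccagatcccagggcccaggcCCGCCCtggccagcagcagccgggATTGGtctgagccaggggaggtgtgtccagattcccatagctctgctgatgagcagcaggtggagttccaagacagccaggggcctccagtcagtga
Slc25a39: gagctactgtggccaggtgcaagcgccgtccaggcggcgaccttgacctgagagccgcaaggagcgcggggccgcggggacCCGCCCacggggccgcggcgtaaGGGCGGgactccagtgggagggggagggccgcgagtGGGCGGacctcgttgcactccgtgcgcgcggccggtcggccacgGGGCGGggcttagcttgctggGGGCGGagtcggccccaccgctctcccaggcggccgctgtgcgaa
Slc25a23: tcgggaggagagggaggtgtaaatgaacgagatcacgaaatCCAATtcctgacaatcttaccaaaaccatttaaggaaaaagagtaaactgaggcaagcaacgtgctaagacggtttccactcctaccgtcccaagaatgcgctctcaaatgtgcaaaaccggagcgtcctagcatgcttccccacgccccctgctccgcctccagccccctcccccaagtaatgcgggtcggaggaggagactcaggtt
The windows lie on the minus strand at chr10:55859061-55859310 for Slc25a11, chr5:159219893-159220142 for Slc25a34, chr10:87866974-87867223 for Slc25a39 and chr9:1985366-1985615 for Slc25a23. Slc25a39 holds 5 GC boxes, Slc25a11 holds 1 GC box and 1 CCAAT box, and Slc25a23 holds 1 CCAAT box.

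Of the 36 members, 31 matched a promoter entry. A GC box was found in 19 of these 31, against 30.5% of all 33469 promoters searched, and a CCAAT box in 18 of 31, against 34.0%. The core site AAGGTCA occurred in 1 carrier promoter, that of Slc25a34, against 4.0% of all promoters. The cyclic AMP response element TGACGTCA was in 1 (Slc25a25, against 1.6%), the E box CACGTG in 2 (against 5.6%) and the TATA box TATAAA in 1 (Slc25a38, against 12.9%). The heat shock element core GAANNTTC matched 0 of 31, against 7.2% of all promoters. All were searched on both strands, and the letters of no motif contain those of another. A match is a run of letters and not evidence that a factor binds there.

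Between the end of heat and a month after it, 10 of the 36 carriers differed (27.8%), against 17.3% of all genes. After 30 days of heat 1 carrier rose and 5 fell against control, against 3.57% of all genes called higher and 4.96% lower, but with values as deposited 1 rose and 0 fell. After a further 30 days without heat 6 rose and 0 fell against control, against 4.45% of all genes higher and 3.77% lower. With the level of atrial markers as a covariate, a fit added after the data had been seen, all 10, all 6 and all 6 of these calls ended. Over the 5 groups 12 of 36 members (33.3%) differed by limma's moderated F test, against 22.2% of all genes. They were Slc25a11, Slc25a30, Slc25a34, Slc25a39, Slc25a10, Slc25a22, Slc25a23, Slc25a29, Slc25a5, Slc25a15, Slc25a21 and Slc25a44, in order of p. DeAC had the highest mean for 10 of these 12 and for 17 of all 36, and it had the highest mean for 24.1% of all genes. The lowest mean of the 12 fell in AC2d for 5 and in AC30 for 5, against 18.9% and 21% of all genes. These shares of all genes, like the 24.1%, count genes whether or not they passed the F test.

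**Figure D1:**
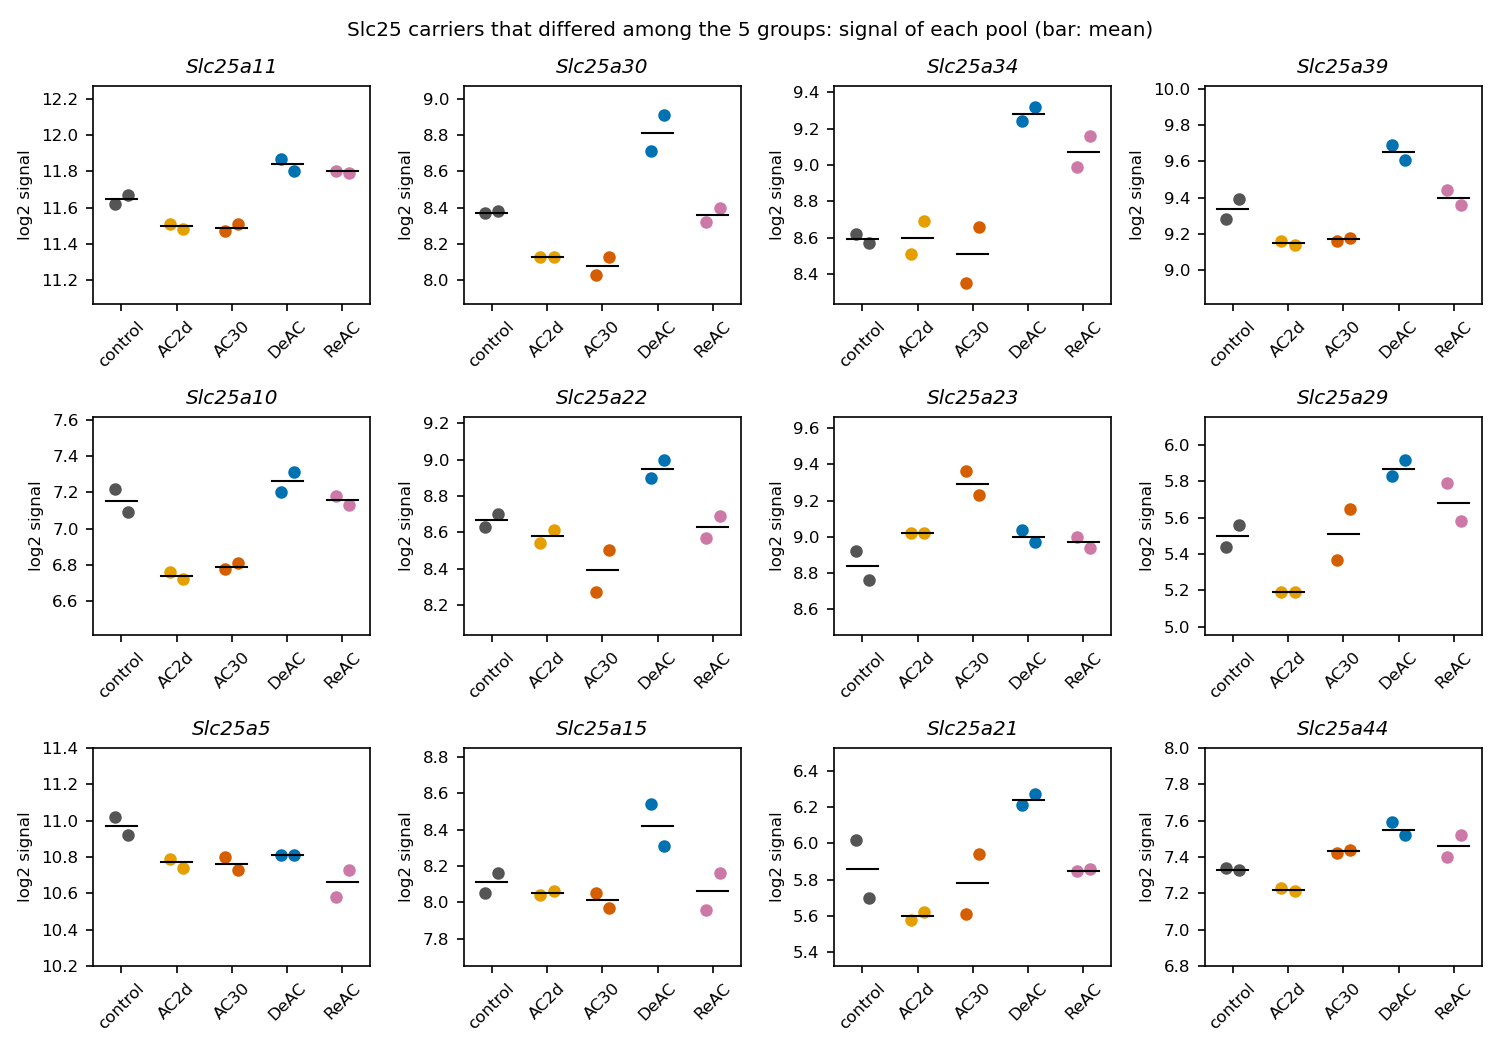
Log2 signal (vertical axis, every panel spanning the same 1.2 log2 units) of the 12 carriers that differed among groups, with 1 point per pool of 5 animals and a bar at the mean of the 2 pools. The DeAC points are highest for 10 of the 12 carriers, while Slc25a23 is highest in AC30 and Slc25a5 in control.

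AC2d against control gave 1 call among the carriers, a fall, against 2.53% of all genes called in either direction and 1.86% lower. AC30 against control called 6 carriers (16.7%), against 8.53% of all genes. The 5 that fell stand beside 4.96% of all genes called lower, and the 1 that rose beside 3.57% called higher. With values as deposited, with median-scaled arrays or with the 2 groups fitted alone, 1 carrier was still called, Slc25a23, which had risen. DeAC against control called 6 of 36, all higher, against 8.22% of all genes in either direction, 4.45% higher and 3.77% lower. Slc25a30, Slc25a34 and Slc25a39 were the 3 still called without the variance trend and with the 2 groups fitted alone. ReAC against control called 3 of 36 (2 higher, 1 lower), against 10.9% of all genes, 5.63% higher and 5.28% lower, so its share of 8.33% was below the background. Median scaling gave 3 higher and 0 lower, and it moved the median change over all genes to 0.06.

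The largest count was in DeAC against AC30, where 10 of 36 carriers (27.8%) passed, against 17.3% of all genes. In that comparison 9 rose, against 9.85% of all genes called higher, and 1 fell, against 7.45% called lower. Median scaling of the arrays gave 13 higher and 0 lower, but it also moved the median change over all genes to 0.08. The shares of all genes called higher and lower under that scaling are not given here. After quantile normalization the median change over the 36 carriers was 0.06, against 0.01 over all genes. Both DeAC pools lay above both AC30 pools for 16 carriers and below them for 3. Over all genes those shares were 28.2% and 24.6%. ReAC against DeAC, the second 2 days of heat, called 4 carriers, all lower, against 3.91% of all genes in either direction and 2.21% lower. Comparisons with the same control, or with DeAC or AC30 on both sides, share those pools and are not independent of each other.

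**Figure D2:**
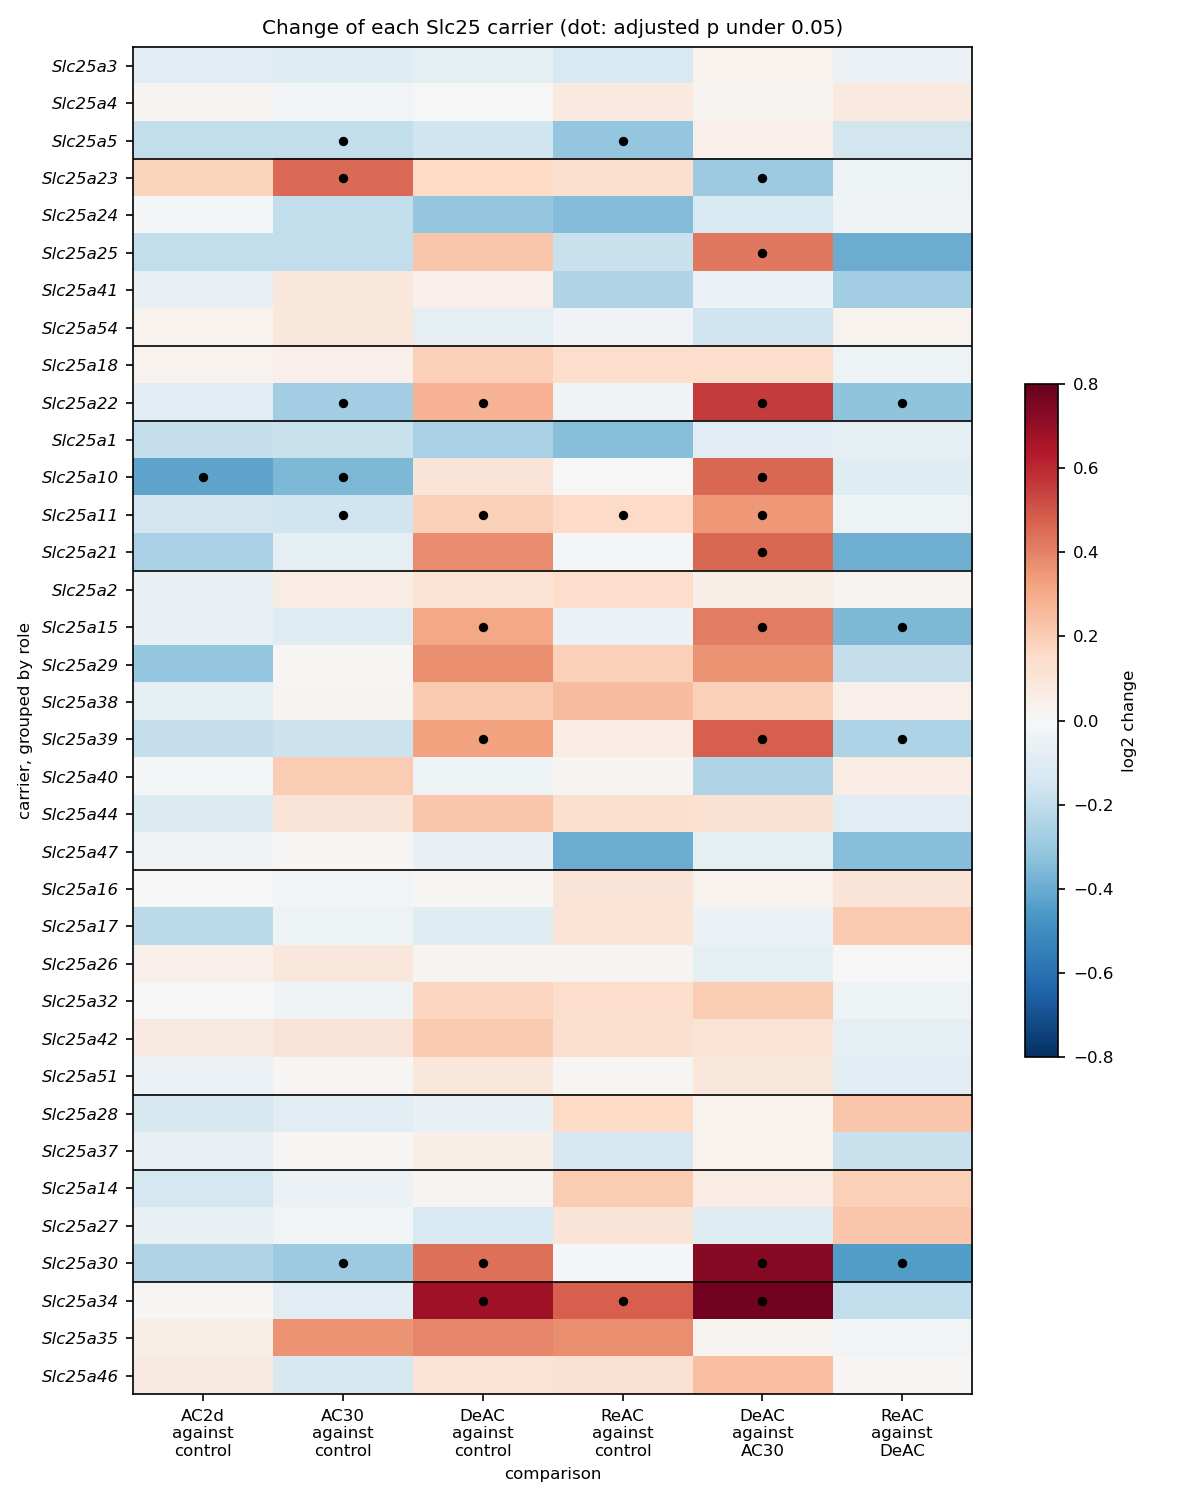
Log2 change of all 36 carriers (rows, grouped by transported solute) in 6 comparisons (columns), red for higher and blue for lower in the first-named group, with a dot where the adjusted p was under 0.05. Dots number 1, 6, 6, 3, 10 and 4 from left to right, and the 6 in DeAC against control are all red.

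The adenine nucleotide and phosphate carriers feed ATP synthesis directly, and 1 of the 3 measured passed the F test, against 22.2% of all genes. Slc25a5, the adenine nucleotide translocase 2 found in many tissues (probe set 10936312), had a log2 signal of 11.02 and 10.92 in control, 10.79 and 10.74 in AC2d, 10.80 and 10.73 in AC30, 10.81 and 10.81 in DeAC, and 10.58 and 10.73 in ReAC. Both control pools were above all 8 pools of the other groups. Slc25a5 fell in ReAC against control by 0.31 ± 0.06 (SE; adjusted p = 0.00297) and in AC30 against control by 0.20 ± 0.06 (adjusted p = 0.0406). The ReAC call ended without ReAC replicate 1 (adjusted p = 0.0567) and under median scaling of the arrays (0.0865). The F test call of Slc25a5 ended under median scaling (adjusted p = 0.0826) and without the intensity trend (0.117). The AC30 call ended in 7 of 10 fits with 1 array left out: control replicate 1, either AC2d pool, either AC30 pool or either DeAC pool (adjusted p between 0.0574 and 0.179).

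Slc25a4, the translocase that predominates in heart muscle, showed no call. It had 13.20 and 13.14 in control, 13.22 and 13.15 in AC2d, 13.14 and 13.16 in AC30, 13.20 and 13.15 in DeAC, and 13.25 and 13.26 in ReAC. All 10 pools lay between 13.14 and 13.26. In DeAC against AC30 its change was 0.02 with a 95% confidence interval of -0.06 to 0.10, so changes as large as those of Slc25a11 lay outside the interval. The phosphate carrier Slc25a3 had 12.46 and 12.45 in control, 12.37 and 12.36 in AC2d, 12.37 and 12.34 in AC30, 12.42 and 12.35 in DeAC, and 12.34 and 12.34 in ReAC. Its ReAC pools were below the control pools by 0.12 ± 0.04, which missed the threshold (adjusted p = 0.0535).

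ATP-Mg/phosphate carriers and their relatives adjust the adenine nucleotide content of the matrix. Slc25a23, Slc25a24 and Slc25a25 sense cytosolic calcium through EF hands, which Slc25a41 lacks. Of 5 members 1 passed the F test, against 22.2% of all genes. Slc25a23 (probe set 10930790) had 8.92 and 8.76 in control, 9.02 and 9.02 in AC2d, 9.36 and 9.23 in AC30, 9.04 and 8.97 in DeAC, and 9.00 and 8.94 in ReAC. Both AC30 pools were above every other pool. It rose in AC30 against control by 0.45 ± 0.07 (1.37-fold, adjusted p = 0.00128), a call kept with each array left out in turn, and fell in DeAC against AC30 by 0.29 ± 0.07 (adjusted p = 0.00898). The atrial covariate ended both calls: the change in AC30 against control was then 0.31 (adjusted p = 0.144) and that in DeAC against AC30 turned to 0.13 (0.957). The DeAC call ended without AC30 replicate 1 or DeAC replicate 2 (adjusted p = 0.096 and 0.0844, in the order named) and under median scaling, where the change was -0.15 (adjusted p = 0.284). A second, dimmer probe set for Slc25a23 gave smaller changes of the same signs. They were 0.21 ± 0.07 in AC30 against control and -0.08 ± 0.07 in DeAC against AC30 (limma unadjusted p = 0.292 for the latter). With the mean of the gene's probe sets the call in DeAC against AC30 ended, and that in AC30 against control was kept.

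Slc25a25, a member of the same subgroup, is named after its values were seen because it was called in DeAC against AC30 without passing the F test. Its DeAC pools had 6.86 and 6.88, against 6.32 and 6.59 in the AC30 pools, a rise of 0.42 ± 0.13 (adjusted p = 0.042). The control pools were 6.47 and 6.83, close to both the AC30 and the DeAC values. The call ended in 7 of 10 fits with 1 array left out, all but those without a control pool or AC30 replicate 2 (adjusted p between 0.0546 and 0.305). Slc25a24, Slc25a41 and Slc25a54 passed no test. The probe sets of Slc25a24 disagreed, with changes of -0.20 and 0.26 in AC30 against control for the brighter and the dimmer one.

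The malate-aspartate shuttle carrier Slc25a11 exchanges 2-oxoglutarate for malate and had the smallest F test p of the 36 members. Slc25a11 (probe set 10744485) had 11.62 and 11.67 in control, 11.51 and 11.48 in AC2d, 11.47 and 11.51 in AC30, 11.87 and 11.80 in DeAC, and 11.80 and 11.79 in ReAC. The pools fell in 3 tiers without overlap: AC2d and AC30 lowest, control between, and DeAC and ReAC highest. The DeAC pools were above the AC30 pools by 0.35 ± 0.04 (1.27-fold, adjusted p = 7.16e-05), a call kept with each array left out. Against control the carrier fell in AC30 by 0.16 ± 0.04 (adjusted p = 0.0322), rose in DeAC by 0.19 ± 0.04 (0.0121) and rose in ReAC by 0.15 ± 0.04 (0.0293).

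Each of these 3 calls of Slc25a11 against control depended on single arrays. The AC30 call ended without control replicate 2, AC30 replicate 1, either AC2d pool or either ReAC pool (adjusted p between 0.0549 and 0.165). The DeAC call ended without control replicate 1 or DeAC replicate 1 (0.0581 to 0.0844), and the ReAC call without control replicate 1, either AC2d pool or either ReAC pool (0.0559 to 0.154).

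Slc25a22, a glutamate/proton symporter (probe set 10726824), had 8.63 and 8.70 in control, 8.54 and 8.61 in AC2d, 8.27 and 8.50 in AC30, 8.90 and 9.00 in DeAC, and 8.57 and 8.69 in ReAC. DeAC was above, and AC30 below, every other pool. It rose in DeAC against AC30 by 0.56 ± 0.08 (1.48-fold, adjusted p = 0.000265), a call kept with each array left out. Against control it fell in AC30 by 0.28 ± 0.08 (adjusted p = 0.0464) and rose in DeAC by 0.28 ± 0.08 (0.0437). Of the fits with 1 array left out, the AC30 call was lost in 8, all but those without control replicate 1 or AC30 replicate 2 (0.0611 to 0.329), with a change of -0.16 without AC30 replicate 1. The DeAC call was lost in 7, all but those without control replicate 2 or an AC30 pool (0.0588 to 0.257). Its paralogue Slc25a18 passed no test.

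The dicarboxylate carrier Slc25a10, which exchanges malate or succinate for phosphate, was the one carrier called after 2 days of heat. Slc25a10 (probe set 10740159) had 7.22 and 7.09 in control, 6.76 and 6.72 in AC2d, 6.78 and 6.81 in AC30, 7.20 and 7.31 in DeAC, and 7.18 and 7.13 in ReAC. The 4 pools of the first heat exposure were all below the other 6 pools, with no overlap. Against control it fell in AC2d by 0.42 ± 0.09 (adjusted p = 0.023) and in AC30 by 0.36 ± 0.09 (0.022), and it rose in DeAC against AC30 by 0.46 ± 0.09 (1.38-fold, 0.00229). The last call was kept with each array left out. The AC2d call ended without control replicate 1 or either AC2d pool (0.0873 to 0.197), and the AC30 call without control replicate 1 or either AC30 pool (0.0501 to 0.111). Both also ended with values as deposited and with median-scaled arrays.

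Slc25a21, the 2-oxoadipate carrier of lysine and tryptophan breakdown (probe set 10890091), had 6.02 and 5.70 in control, 5.58 and 5.62 in AC2d, 5.61 and 5.94 in AC30, 6.21 and 6.27 in DeAC, and 5.85 and 5.86 in ReAC. Both DeAC pools were above all others. The carrier rose in DeAC against AC30 by 0.46 ± 0.13 (1.38-fold, adjusted p = 0.0288), but the call ended without AC30 replicate 1 or either DeAC pool (0.0823 to 0.252), and the change was 0.30 without AC30 replicate 1. Its F test call (adjusted p = 0.0286) ended without any 1 of the AC2d, DeAC or ReAC pools (0.0573 to 0.151).

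The citrate carrier Slc25a1, which exports citrate for fatty acid synthesis, passed no test. It had 6.84 and 6.76 in control, 6.65 and 6.57 in AC2d, 6.78 and 6.46 in AC30, 6.58 and 6.50 in DeAC, and 6.44 and 6.49 in ReAC. ReAC was below control by 0.34 ± 0.11 (adjusted p = 0.0728), while a second probe set gave 0.16 ± 0.12 in the same direction. Of the 4 carriers of citrate, dicarboxylates and oxoacids, 3 were called higher in DeAC against AC30, against 9.85% of all genes. The median change over the 4 was 0.40, against 0.01 over all genes.

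Slc25a39, an importer of glutathione, led the 8 carriers of amino acids, glycine and glutathione (probe set 10747836). It had 9.28 and 9.39 in control, 9.16 and 9.14 in AC2d, 9.16 and 9.18 in AC30, 9.69 and 9.61 in DeAC, and 9.44 and 9.36 in ReAC. DeAC was above, and the first-exposure groups AC2d and AC30 below, all other pools. Its level rose in DeAC against AC30 by 0.48 ± 0.06 (1.40-fold, adjusted p = 7.96e-05), a call kept with each array left out. It rose in DeAC against control by 0.32 ± 0.06 (0.00488), a call that ended without DeAC replicate 1 (0.0506). The paralogue Slc25a40 passed no test, with a change of -0.24 ± 0.11 in DeAC against AC30 (0.181).

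The ornithine carrier Slc25a15, which serves the urea cycle in liver (probe set 10789143), had 8.05 and 8.16 in control, 8.04 and 8.06 in AC2d, 8.05 and 7.97 in AC30, 8.54 and 8.31 in DeAC, and 7.96 and 8.16 in ReAC. DeAC stood above the other groups. Before rounding, both AC30 pools were just below both control pools, by 0.10 ± 0.09, which did not pass (adjusted p = 0.632). The carrier rose in DeAC against AC30 by 0.41 ± 0.09 (1.33-fold, adjusted p = 0.00553) and against control by 0.31 ± 0.09 (0.0484). These values depended on DeAC replicate 1: without it the call against AC30 ended (0.0752), the change against control was 0.20, and the F test gave an adjusted p of 0.25. The call against control was lost in 7 of 10 fits, all but those without control replicate 2, AC30 replicate 2 or DeAC replicate 2 (0.0504 to 0.286), and with the replicate number as a block.

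Slc25a29, a carrier of basic amino acids, differed over the 5 groups (F test adjusted p = 0.0118) without a call in any single comparison. It had 5.44 and 5.56 in control, 5.19 and 5.19 in AC2d, 5.37 and 5.65 in AC30, 5.83 and 5.92 in DeAC, and 5.79 and 5.58 in ReAC. AC2d was lowest and DeAC highest. The F test call ended without either AC2d pool or without DeAC replicate 2 (0.0508 to 0.0652). Slc25a44, which carries branched-chain amino acids, had 7.34 and 7.33 in control, 7.23 and 7.21 in AC2d, 7.42 and 7.44 in AC30, 7.59 and 7.52 in DeAC, and 7.40 and 7.52 in ReAC. It too passed the F test alone (adjusted p = 0.0413), and not without any 1 of the AC2d, DeAC or ReAC pools (0.0621 to 0.159). The glycine carrier Slc25a38, Slc25a2 and Slc25a47 passed no test.

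Slc25a30 (probe set 10785326) is known as kidney mitochondrial carrier protein 1 and is related in sequence to the uncoupling proteins. Of the 36 members it had the smallest p in DeAC against AC30. It had 8.37 and 8.38 in control, 8.13 and 8.13 in AC2d, 8.03 and 8.13 in AC30, 8.71 and 8.91 in DeAC, and 8.32 and 8.40 in ReAC. The DeAC pools were highest, control and ReAC overlapped, and the first-exposure pools were lowest. It rose in DeAC against AC30 by 0.73 ± 0.08 (1.65-fold, adjusted p = 2.67e-05), a call kept with each array left out, and in DeAC against control by 0.44 ± 0.08 (1.35-fold, 0.00345), a call that ended without DeAC replicate 2 (0.0516). It fell in AC30 against control by 0.29 ± 0.08 (0.0309), a call that ended without either control pool, either AC2d pool or AC30 replicate 1 (0.0539 to 0.185). Slc25a14 and Slc25a27, the other measured relatives of the uncoupling proteins, passed no test.

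Slc25a34, a carrier whose substrate is not settled (probe set 10881140), showed the largest rise of the 36 members in DeAC. It had 8.62 and 8.57 in control, 8.51 and 8.69 in AC2d, 8.35 and 8.66 in AC30, 9.24 and 9.32 in DeAC, and 8.99 and 9.16 in ReAC. The DeAC and ReAC pools were all above the 6 pools of control, AC2d and AC30. It rose in DeAC against AC30 by 0.77 ± 0.10 (1.70-fold, adjusted p = 9.85e-05) and against control by 0.68 ± 0.10 (1.60-fold, 0.000923), both kept with each array left out. Both ended with the atrial covariate, at changes of 0.84 (0.474) and 0.73 (0.161). In ReAC it rose against control by 0.48 ± 0.10 (1.39-fold, 0.00551), which ended without ReAC replicate 2 (0.0804). Of the 651 probe sets in the authors' deposited table of fold changes it was the 1 carrier listed, at signed folds against control of 1.00 in AC2d, -1.06 in AC30, 1.68 in DeAC and 1.43 in ReAC. The less characterised Slc25a35 and Slc25a46 passed no test.

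The cofactor and iron carriers gave no call. By the limma F test 0 of 6 cofactor carriers and 0 of 2 mitoferrins passed, against 22.2% of all genes. Whether these 8 differ from that share was not tested, and 1 of them, Slc25a32, had an unadjusted p under 0.05. The adjusted F test p of the 6 cofactor carriers lay between 0.114 for the folate carrier Slc25a32 and 0.862 for Slc25a16. The coenzyme A carrier Slc25a42 had 7.94 and 8.15 in control, 8.20 and 8.03 in AC2d, 8.05 and 8.23 in AC30, 8.19 and 8.32 in DeAC, and 8.15 and 8.19 in ReAC. Mitoferrin 1 (Slc25a37), which brings iron in for haem synthesis, had 6.57 and 6.52 in control, 6.42 and 6.55 in AC2d, 6.65 and 6.47 in AC30, 6.56 and 6.63 in DeAC, and 6.28 and 6.55 in ReAC. Mitoferrin 2 (Slc25a28) had 7.37 and 7.57 in control, 7.35 and 7.34 in AC2d, 7.33 and 7.44 in AC30, 7.30 and 7.52 in DeAC, and 7.64 and 7.63 in ReAC. The AC30 pools of all 3 overlapped the control pools, and so did the DeAC pools of both mitoferrins. Both DeAC pools of Slc25a42 were above both control pools, by a mean of 0.21 ± 0.09 (adjusted p = 0.194). The 3 probe sets of the NAD carrier Slc25a51 changed by 0.09 to 0.18 in DeAC against AC30.

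**Figure D3:**
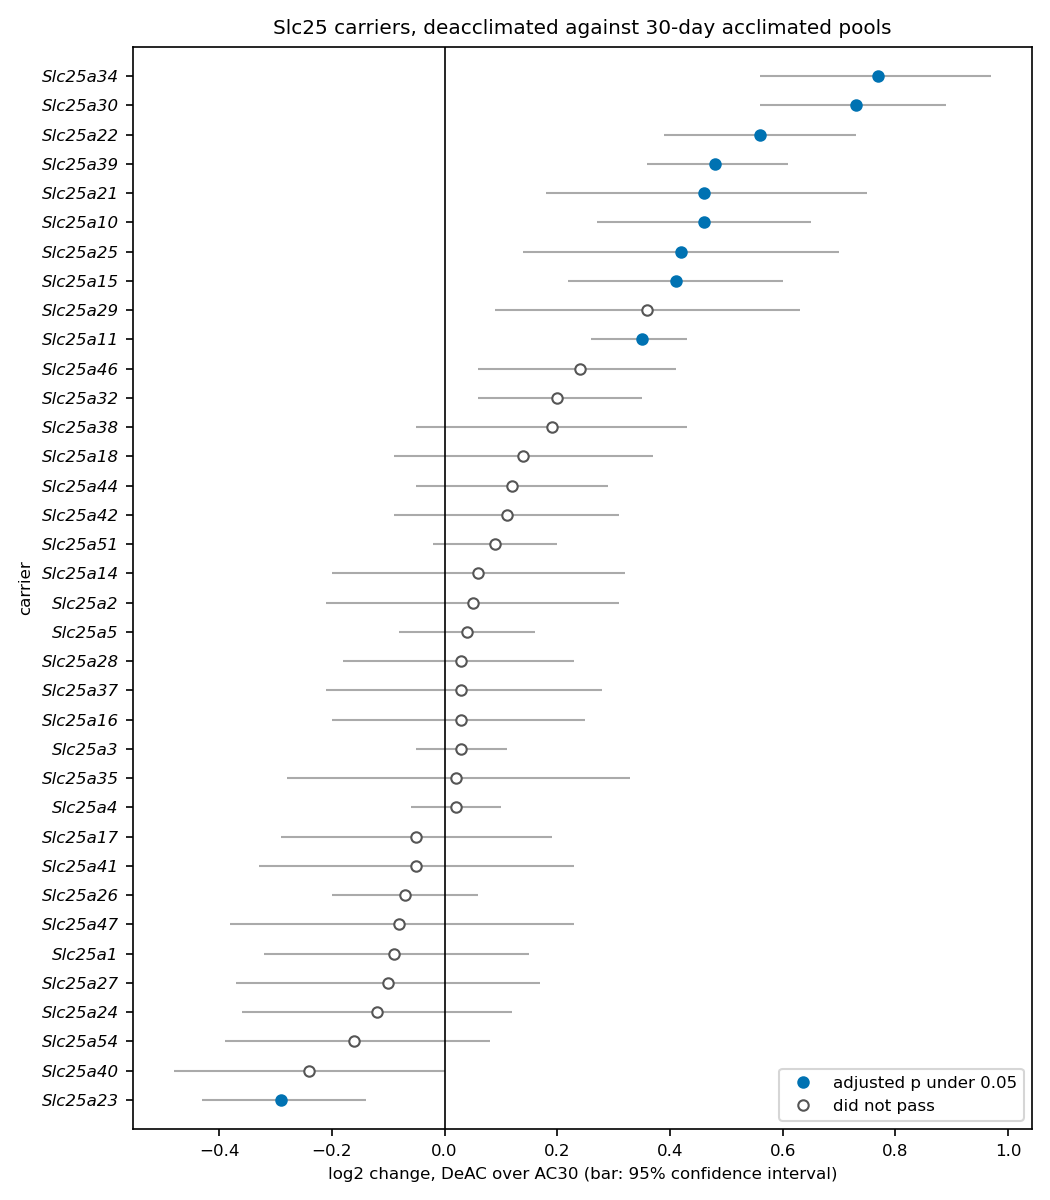
Log2 change in DeAC over AC30 (horizontal axis) of all 36 carriers (rows, sorted), with 95% confidence intervals. Filled points mark the 10 carriers with an adjusted p under 0.05, from Slc25a34 at 0.77 to Slc25a23 at -0.29.

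After the second 2 days of heat, 4 of the carriers that stood high in DeAC were lower. In ReAC against DeAC, Slc25a30 fell by 0.45 ± 0.08 (adjusted p = 0.00557), Slc25a15 fell by 0.36 ± 0.09 (0.0419), Slc25a22 fell by 0.32 ± 0.08 (0.0432) and Slc25a39 fell by 0.25 ± 0.06 (0.0278). Slc25a11 differed by -0.04 ± 0.04 (0.747) and Slc25a34 by -0.20 ± 0.10 (0.309), neither of which passed. The Slc25a30 call ended without DeAC replicate 2 or ReAC replicate 1 (0.0692 to 0.0855). Those of Slc25a22 and Slc25a39 ended without any 1 of the AC2d, DeAC or ReAC pools (0.0547 to 0.329), and that of Slc25a15 without any 1 of the same pools except DeAC replicate 2 (0.0705 to 0.356). With median-scaled arrays 0 carriers passed.

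The second heat response, ReAC minus DeAC, was set against the first, AC2d minus control, in a test of the difference itself. By limma 0 of 36 carriers passed, against 0.3% of all genes, and 5 had an unadjusted p under 0.05 (3 higher and 2 lower). The 2 lower ones included Slc25a15, with a difference of -0.30 ± 0.13 (adjusted p = 0.541), and the 3 higher ones included Slc25a10, at 0.32 ± 0.12 (0.513). So the falls of Slc25a10 in AC2d and of Slc25a30 and Slc25a39 in ReAC were not shown to belong to one exposure alone.

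The enzymes that complete the malate-aspartate shuttle were measured beside Slc25a11. All 4, the cytosolic and mitochondrial aspartate aminotransferases Got1 and Got2 and the malate dehydrogenases Mdh1 and Mdh2, rose in DeAC against AC30, with a median change of 0.28. Got1 had 12.05 and 12.08 in DeAC, against 11.51 and 11.59 in AC30, a change of 0.52 ± 0.04 (adjusted p = 5.80e-06). Mdh2 changed by 0.28 ± 0.05 (0.000806) and Got2 by 0.28 ± 0.05 (0.00161) in the same comparison. In AC30 against control 3 of the 4 fell, among them Got1 by 0.24 ± 0.04 (0.0038) and Mdh2 by 0.28 ± 0.05 (0.00211). The background shares for these counts are those given above for each comparison.

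**Figure D4:**
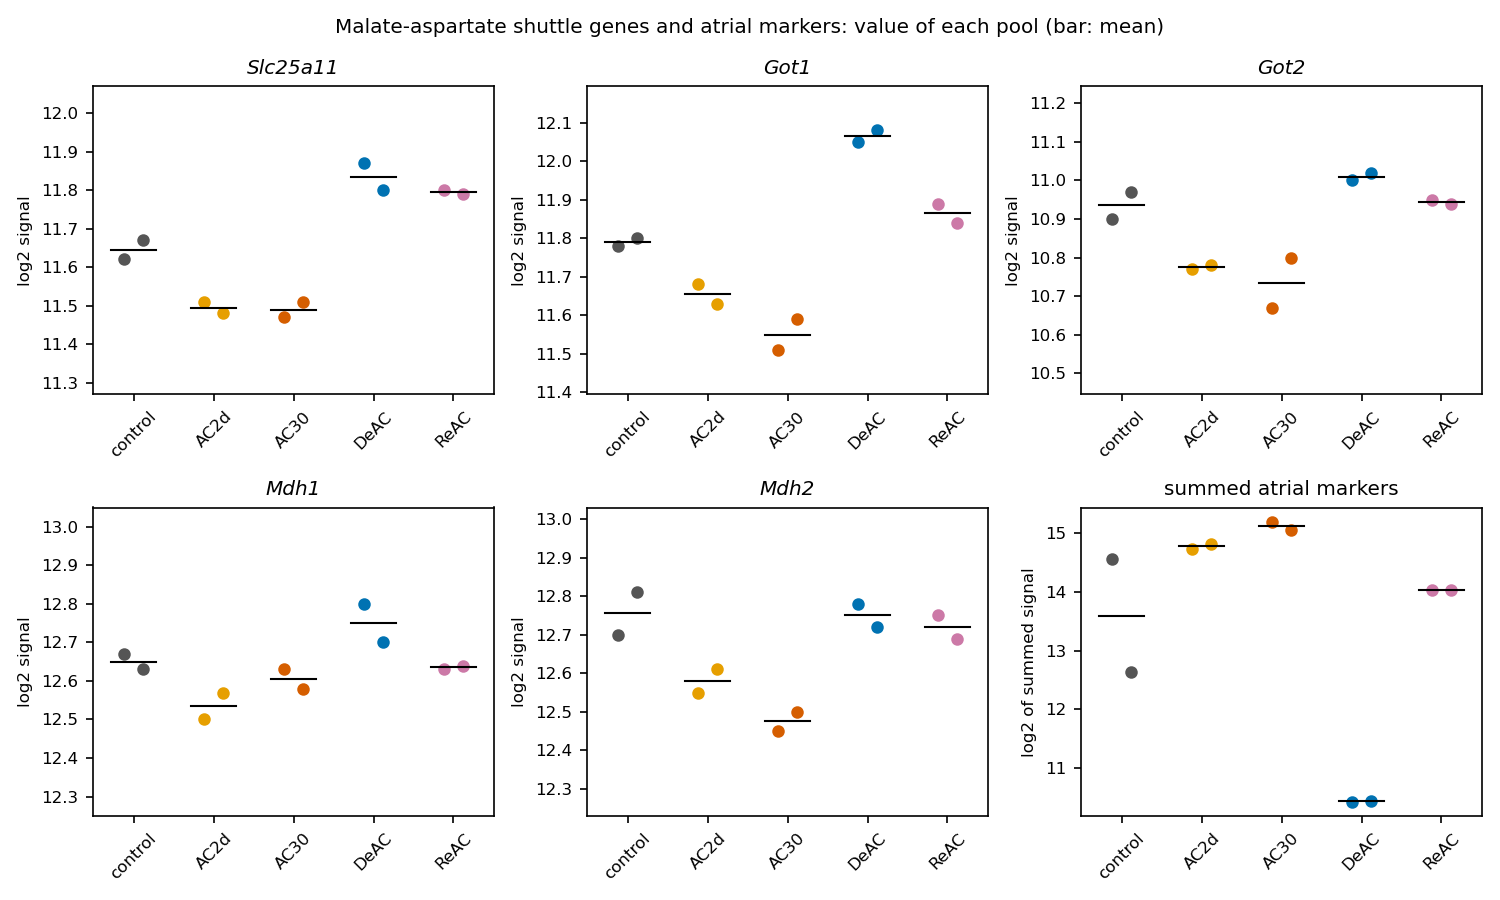
Log2 signal of Slc25a11 and the 4 shuttle enzymes, and log2 of the summed signal of 7 atrial markers (last panel, its own scale), with 1 point per pool and a bar at the mean. In the 5 shuttle panels DeAC is above AC30, and in the atrial panel DeAC is far below every other group, with the 2 control points apart.

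Genes of the import route for carriers changed in both directions. Carrier precursors pass the outer membrane through the TOM complex, reach the small TIM chaperones and are inserted by the TIM22 complex. Of 13 measured members 4 rose and 1 fell in DeAC against AC30, against 9.85% of all genes called higher and 7.45% lower. In AC30 against control 1 rose and 3 fell, against 3.57% higher and 4.96% lower. Tomm40, the channel of the TOM complex, had 9.10 and 9.09 in DeAC, against 8.68 and 8.68 in AC30 (0.41 ± 0.06, adjusted p = 0.000389). Tomm70, a receptor for carrier precursors, had 9.54 and 9.47 in DeAC, against 8.98 and 9.16 in AC30 (0.44 ± 0.07, 0.000442). Timm8a1, one of the small TIM chaperones, rose by 0.24 ± 0.06 (0.0172).

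Carrier-fold genes not named Slc25a included 2 with larger changes in DeAC against AC30 than any of the 36 members. Ucp1, the uncoupling protein of brown fat, had 4.49 and 4.63 in DeAC, against 7.06 and 7.0 in AC30, and fell by 2.47 ± 0.77 (adjusted p = 0.0408), and its control pools were far apart at 8.43 and 4.50. Uncoupling protein 3 (Ucp3) had 8.74 and 8.90 in DeAC, against 7.27 and 7.40 in AC30, a rise of 1.48 ± 0.12 (adjusted p = 3.59e-06). Ucp2 fell against control in AC2d by 0.40 ± 0.05 (0.000463) and in AC30 by 0.37 ± 0.05 (0.000315). It also fell against control in DeAC by 0.42 ± 0.05 (0.000154) and in ReAC by 0.72 ± 0.05 (5.68e-07). Of the 5 such genes measured, 2 rose and 1 fell in DeAC against AC30, against 9.85% of all genes called higher and 7.45% lower. Among 5 outer membrane channels and pyruvate carrier genes 1 rose, Vdac1, the main outer membrane channel, by 0.28 ± 0.04 (0.000515).

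Of the 4 calcium uniporter and related genes measured, 3 rose and 0 fell in DeAC against AC30, among them the uniporter Mcu by 0.53 ± 0.08 (adjusted p = 0.000595) and Letm1, an inner membrane ion exchanger, by 0.37 ± 0.06 (0.000555). Among 11 genes of mitochondrial content and its regulators, 7 rose and 0 fell, with a median of 0.28. Of all genes, 9.85% were called higher and 7.45% lower in this comparison. Citrate synthase (Cs), a common measure of mitochondrial mass, rose by 0.37 ± 0.05 (0.000227), and the fusion GTPase Opa1 by 0.55 ± 0.06 (2.67e-05). The carriers called higher therefore moved beside a broader set of mitochondrial genes, and whether they moved more than the mitochondrial content of the tissue was not tested.

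Markers of other cell types moved with the same comparison. All 7 measured atrial markers of 8 written were called lower in DeAC than in AC30, against 7.45% of all genes. Their median change was -4.88 log2 units. The summed linear signal of these 7 was 1375 and 1392 in the DeAC pools, against 37700 and 33950 in the AC30 pools. In the other groups it was 24130 and 6373 in control, 27360 and 28850 in AC2d, and 16730 and 16820 in ReAC. Bmp10, made in the atrium, was at a log2 signal of 4.44 and 4.67 in DeAC. These values lie where the dimmest carriers do: Slc25a41 ran from 4.37 to 4.88 over all pools. Between the control pools, whose atrial sums differed, 6 of the 12 carriers that passed the F test were higher in replicate 2, the pool with the lower sum, and 6 were lower. The differences, replicate 2 minus replicate 1, ran from -0.32 for Slc25a21 to 0.12 for Slc25a29 and Slc25a39. For Slc25a11, Slc25a15, Slc25a22, Slc25a23, Slc25a29, Slc25a30 and Slc25a39 the difference had the sign of the change in DeAC against AC30. For Slc25a5, Slc25a10, Slc25a21, Slc25a34 and Slc25a44 it had the opposite sign.

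A fit with the atrial level of each array (mean of the 7 markers) as a covariate was added after the data had been seen. In it 0 carriers were called in DeAC against AC30 and 93 of all genes. The changes were then 0.66 ± 0.27 for Slc25a30, 0.84 ± 0.33 for Slc25a34, 0.23 ± 0.14 for Slc25a11, 0.33 ± 0.27 for Slc25a22 and 0.20 ± 0.19 for Slc25a39, with adjusted p between 0.474 and 0.895. The covariate nearly follows the groups, and its slope comes from gaps between same-group pools, the widest of them between the control pools. The median SE of a carrier's change in DeAC against AC30 was 0.32 with the covariate and 0.10 without it. All 6 calls in AC30 against control, all 6 in DeAC against control and all 4 in ReAC against DeAC ended. The changes in DeAC against control were then 0.73 for Slc25a34, 0.39 for Slc25a30 and 0.13 for Slc25a39 (adjusted p = 0.161, 0.454 and 0.811). The call of Slc25a10 in AC2d against control and those of Slc25a34, Slc25a11 and Slc25a5 in ReAC against control were kept. By the F test 5 of the 12 were kept, namely Slc25a5, Slc25a10, Slc25a11, Slc25a23 and Slc25a34.

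All 7 fibroblast markers were called lower in DeAC than in AC30, with sums of 9478 and 9509 in DeAC, against 13530 and 13590 in AC30. Of all genes, 9.85% were called higher in DeAC against AC30 and 7.45% lower. Erythroid markers summed to 7841 and 7476 in DeAC, against 11250 and 10900 in AC30, with 1 of 6 called higher and 3 lower. Among 9 adipocyte markers 1 was called higher and 3 lower, with sums of 2340 and 2334 in DeAC, against 2603 and 2636 in AC30. Fabp4, a fatty acid binding protein also made by endothelial cells, gave most of that sum and had 10.69 and 10.68 in DeAC, against 10.68 and 10.72 in AC30. Lipe, the marker called higher, had the smallest F test p of the 9, with 8.55 and 8.58 in DeAC, against 8.37 and 8.35 in AC30. Of the 3 called lower, the gene of the fat hormone adiponectin (Adipoq) fell by 1.95 ± 0.42 (adjusted p = 0.00554), that of the lipid droplet protein Plin1 fell by 1.10 ± 0.23 (0.0042), and Pck1, an enzyme of glycerol synthesis in fat, fell by 1.78 ± 0.52 (0.0315). Adipoq had 4.86 and 4.52 in DeAC, against 6.82 and 6.46 in AC30, and its control pools were at 7.30 and 5.26. Pck1 had 5.88 and 5.89 in DeAC, against 7.66 and 7.68 in AC30, with control pools at 8.58 and 5.92. In the control group Adipoq, Pck1 and Ucp1 were thus higher in replicate 1, the pool that also had the higher atrial sum. Endothelial markers (5 measured) had 1 call, lower, and macrophage markers (9 measured) had 2, higher. Of 6 proliferation markers 0 passed in DeAC against AC30, and all 6 were called lower in DeAC than in control, against 3.77% of all genes. The 8 heart muscle markers had 0 calls in DeAC against AC30 by limma, with a median change of -0.01. The part of these other cell types in the carrier results was not tested.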

How the data were processed

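Total RNA from left ventricles was biotin-labelled and hybridised to 1 array per pool, per the labels' protocols. The authors deposited 27342 probe set values per array on a log2 scale (read from their range and the fold table), with summary and normalization not given in the sources used. Array medians were 5.95 to 6.10. A second deposited table gives the authors' signed fold change as a score for 651 probe sets; it matched differences of group means within 0.04 log2 units. Of the value columns, 0 were left out.

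Symbols came from the platform annotation (15097 probe sets with 1 symbol, 323 with several, 11922 with none), brought up to date with RefSeq. Values were quantile normalized and modelled in R 4.3.3 with limma 3.58.1 (lmFit and eBayes, trend on; 5 residual and 8.3 prior degrees of freedom). Tests were two-sided, adjusted by Benjamini-Hochberg within a comparison. The script was tested on simulated data. Alternatives were values as deposited, median scaling, no trend, no dim genes, mean of probe sets, groups alone, a replicate block, each array left out, and an atrial covariate.

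The members, lists and tests were chosen with earlier results of these data known. Values per pool are given for carriers that passed the F test and for Slc25a1, Slc25a3, Slc25a4, Slc25a5, Slc25a10, Slc25a11, Slc25a23, Slc25a28, Slc25a37 and Slc25a42. By rule, up to 3 genes with the smallest F test p are named from a list. Adipoq, Pck1 and Ucp1 were named outside that rule.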

Additional observations from a re-analysis of the deposited data

How the results depend on the processing

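Of 741 comparisons of a single carrier's result with an alternative, 551 kept the call, 188 lost it without reversing, and 2 reversed. The F test results among them have no direction, so these could be kept or lost but not reversed. The reversals came from the atrial covariate in DeAC against AC30: Slc25a23 was at 0.13 (adjusted p = 0.957) and Slc25a25 at -0.51 (0.84). With that covariate the F test called 7 carriers, AC30 against control 1, DeAC against control 1, ReAC against control 5, DeAC against AC30 0 and ReAC against DeAC 0. Of the carriers called without it, these held 5 of 12 in the F test, 0 of 6 in AC30 against control, 0 of 6 in DeAC against control and 3 of 3 in ReAC against control. The carrier called with it alone was Slc25a24 in AC30 and Slc25a35 in DeAC. In AC2d against control, 0 were called with values as deposited, with median scaling and with the 2 groups fitted alone. AC30 against control gave 1 call with values as deposited (1 higher and 0 lower, against 1 and 5), 1 with median scaling, 2 without the variance trend and 1 with the groups alone. DeAC against control gave 3 without the trend and 3 with the groups alone, and ReAC against control gave 5 without the 40% dimmest genes. ReAC against DeAC gave 0 with median scaling and 1 without the trend. DeAC against AC30 split into 13 higher and 0 lower with median scaling and 7 and 1 with values as deposited, against 9 and 1. Median scaling moved the median change of all genes in that comparison to 0.08.

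With 1 array left out in turn the calls ranged from 9 to 15 for the F test, 0 to 1 in AC2d against control, 1 to 5 in AC30 against control, 2 to 7 in DeAC against control, 1 to 5 in ReAC against control, 7 to 12 in DeAC against AC30 and 0 to 5 in ReAC against DeAC. A group's remaining single pool was then taken to vary as other groups' pools did. The second heat response minus the first gave 0 calls in each of these fits.

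With the replicate number as a block (replicate block) the counts were 13 for the F test, 1 in AC2d, 6 in AC30, 5 in DeAC and 4 in ReAC against control, 10 in DeAC against AC30 and 4 in ReAC against DeAC. Deviations of same-numbered pools correlated between -0.077 and 0.21, over 0.1 in 1 of 10 group pairs, so the numbers were not taken to pair the pools. The block ended the F test call of Slc25a44 and the call of Slc25a15 in DeAC against control. Arrays do not count molecules, so the 2 pools a group limit the precision, and signals of the dimmest carriers lie near the background.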

Other observations

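Some carriers that passed no test are given here as values, chosen after the values were seen. Slc25a35, a carrier without a settled substrate, had log2 signals of 6.80 and 6.94 in AC30, 6.81 and 6.98 in DeAC and 6.85 and 6.91 in ReAC, against 6.77 and 6.25 in the control pools. The changes against control were 0.36 to 0.39 (limma adjusted p between 0.118 and 0.159), and the control pools were 0.51 apart. The liver-rich carrier Slc25a47 had 5.44 and 5.60 in ReAC, against 5.87 and 5.97 in control (-0.40 ± 0.14, SE, adjusted p = 0.0941). Slc25a24 had 7.82 and 7.86 in ReAC, against 8.39 and 7.99 in control (-0.35 ± 0.11, adjusted p = 0.0602). The folate carrier Slc25a32 had 7.90 and 7.97 in DeAC, against 7.71 and 7.76 in AC30 (0.20 ± 0.07, adjusted p = 0.0587).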
